A study of Mus musculus with 4 samples.

Results

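The 114 genes described here, known by RIKEN clone symbols, were selected on these arrays for a high processed signal ratio of mouse ES cells over a reference RNA labelled as a pool of 11 cell lines. For 27 of them the reference signal was above background on no array, so how far they lie above it was not measured. Starting from 1739 probes with a symbol ending in Rik in the parts held here of 5 supplementary tables of the study, leaving out 3 clone series of testis libraries, 1234 had sample signal (Cy3) well above background on all 4 arrays. Members are the 114 of these (9.24%) with a mean log-ratio of reference over sample (log10 Cy5/Cy3, from the scanner software) of -0.7 or lower, which is a 5.01-fold higher sample signal. Of the 16229 genes of any name detected in this way, 1767 (10.9%) passed the same ratio threshold. The array design measured 25030 genes. Because the ratio chose the members, its level is given as a description only, and the supplementary tables are held in part, so other RIKEN clones with such a ratio may exist on the array.

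B6R(5) ES cells, a C57BL/6 line grown without feeders, were treated for 48 hr from 24 hr after plating. The control culture received DMSO alone, and the other cultures received the FGFR inhibitor PD173074 (100 μM), the MEK inhibitor PD98059 (25 μM) or the GSK-3 inhibitor BIO (2 μM). These are the units of the Methods, while a supplementary list of the study has the same numbers in mM. All cultures contained 0.2% DMSO. The sample labels give the reference as the pool of 11 cell lines alone, while the Methods, for the organ arrays of the study, describe a Cy5 reference in which that pool was mixed with RNA of MC1 cells. For the inhibitor-treated cells the Methods say only that RNA was processed as described. Which of these references was on the ES cell arrays is not settled here, and each ratio is against the one used. There was 1 culture and 1 array per condition, with Cy3 for ES cells and Cy5 for the reference and no dye swap, so no value below has a replicate check and no test was made. Changes are log2 values on the inhibitor array minus the control array, and all 3 inhibitors share that control array. A member was called changed at 2-fold or more, that is 1 on the log2 scale. The spread given beside a change is a robust SD of the same change among genes of similar Cy3 signal (20 groups), and it contains true changes as well as error.

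RIKEN symbols are placeholder names from a large effort to sequence full-length mouse cDNA clones, in which the leading characters of a symbol name the library that the clone came from. Some of these genes have since received names, and others are still described by the clone, among them many long noncoding RNAs. ES cells are derived from the inner cell mass of the blastocyst. FGF signaling through MEK and ERK moves them toward differentiation, and inhibition of GSK-3 stabilizes beta-catenin, so blocking MEK and GSK-3 together is a known way to hold them in the naive state.

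Of the 114 symbols, 103 matched a gene in the RefSeq table of assembly GRCm38.p6, and 37 of these are still named by the clone. By that table, 75 members are protein coding, 25 are long noncoding RNAs, 2 are transcribed pseudogenes and 1 is a miscellaneous RNA. Among the other 1120 detected RIKEN symbols, 16.2% were long noncoding RNAs, against 21.9% of the members. Noncoding members were dimmer, with a median processed Cy3 signal of 159.5 against 1031 for protein-coding ones, but signals of different probes cannot be compared as levels.

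The values of each member are those of 1 probe of 60 bases, and second probes listed for 10 members are described apart. The probes of the 7 members that changed at least 2-fold by both measures with at least 1 inhibitor are shown 5' to 3', since the changes given below are theirs. For genes annotated as noncoding the whole probe is given, and for protein-coding genes its first 30 bases, with current names in parentheses.
2310043M15Rik: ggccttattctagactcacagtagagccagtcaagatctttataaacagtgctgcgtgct
1600029D21Rik (Plet1): ctactagcagatttccactgtgcccagacc
6330407J23Rik (Soga3): gaccgaggagcagaggagcccatatccgtg
2410137F16Rik (Srrm4os): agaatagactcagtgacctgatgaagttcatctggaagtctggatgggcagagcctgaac
2410137M14Rik: ggatctggtggtgtttggcttttgtattct
4631416L12Rik (Arhgef26): gagatgtcccaggattataaaacaggaaat
2410004A20Rik (Khdc3): gaagaacagagtagagctgtttttgtttcc
The GC content of these probes was between 36.7% and 55%. Over all members the median was 45%, against 43.3% for the other detected RIKEN symbols.

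The selected ratios had a wide range. The mean processed signal of ES cells over reference was between 5.02-fold and 189-fold, with a median of 9.93-fold, and 54 members were at 10-fold or more. These values include members with reference signal above background on no array, whose own median was 14.9-fold. All 4 arrays taken singly passed the level asked for in 91 of the 114 members. The 5 highest processed ratios were those of A830018L16Rik (189-fold), 2410003J06Rik, now Mageb16 of the MAGE family (177-fold), 4931407G18Rik, now Cabs1, a calcium-binding protein known from spermatids (139-fold), the noncoding 2410003L11Rik (80.9-fold) and 1100001H23Rik, now Plbd1 (60.5-fold). The reference signals of A830018L16Rik, Cabs1 and Plbd1 were above background on no array, so their folds, the top of the range among them, and their place in this order rest on values near the floor. Just inside the threshold were 2410016O06Rik (Riox1, 5.19-fold), 2810422O20Rik (Mettl18, 5.11-fold) and 8430415E04Rik (Ppp4r4, 5.02-fold). Just outside it were 6430526N21Rik, 4921511H13Rik and 1500003O22Rik, at 4.96-fold, 4.91-fold and 4.91-fold.

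**Figure D1:**
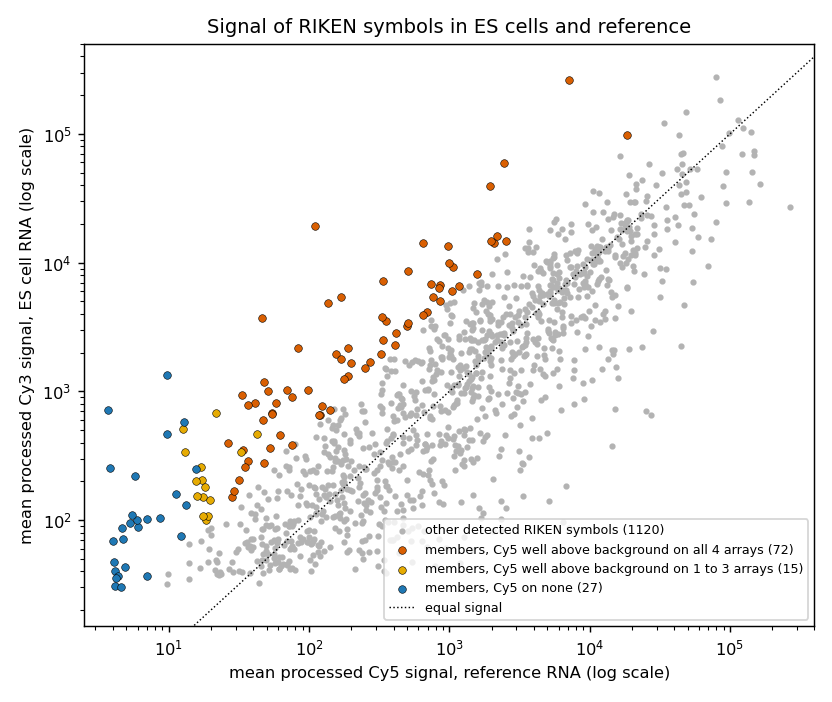
Mean processed signal over the 4 arrays of RIKEN symbols detected in ES cells, with the Cy5 signal of the reference on the x axis and the Cy3 signal of ES cells on the y axis, both on log scales. Members (colored, 114) lie above the line of equal signal by construction, and the reference signal of the 27 blue ones was not well above background on any array.

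How far above the reference a member lies could be measured only where the reference gave signal. All 4 arrays had Cy5 well above background for 72 members, 1 to 3 arrays for 15 and no array for 27. Of the other detected RIKEN symbols, 1099 of 1120 had Cy5 above background on all arrays. For the 27 members without reference signal the processed ratio was between 5.8-fold and 189-fold, but it divides by values near the floor of the software. A lower ratio was therefore computed from normalized log2 values with 50 added to both channels, setting the reference on each array to the higher of the probe's own value and the lowest value still well above background. It was between 1.13-fold and 9.35-fold with a median of 1.52-fold, and it is open to dye bias. For 21 of the 27 the probe's own value was the higher on all 4 arrays, so this is their ratio with the offset and no bound set by the background. Cabs1 (9.35-fold) and A830018L16Rik (5.64-fold) stayed past the level that the selection asked for, and Plbd1 came to 2.51-fold. For these 27, the place far above the reference rests on a processed ratio and not on a measured reference level. When both channels had to be above background, 72 members were left, and when the loess-normalized ratio with the offset of 50 was held to the same threshold, 33 were left.

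**Figure D2:**
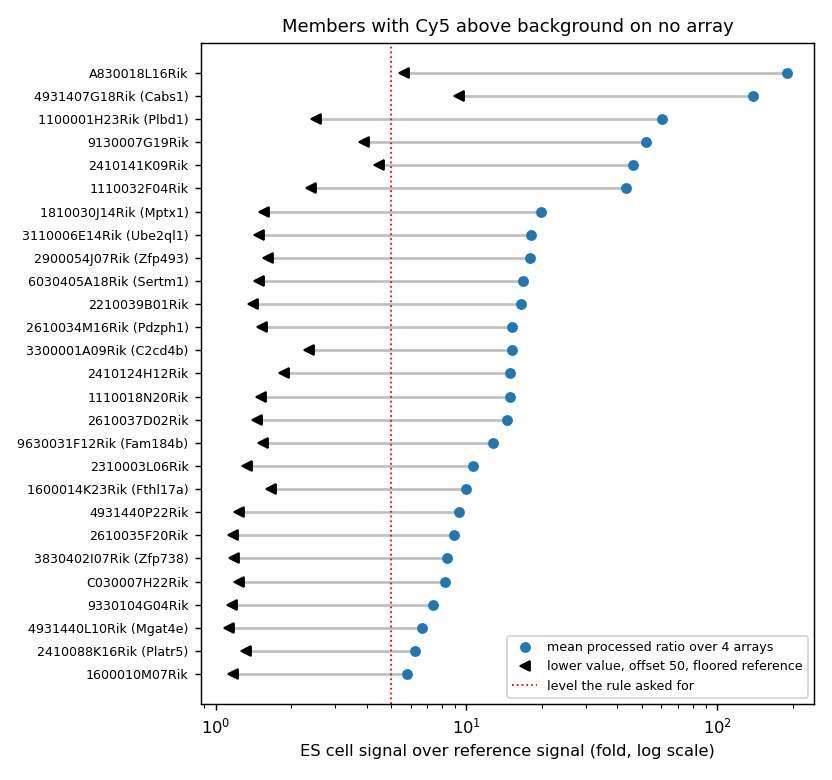
The 27 members with Cy5 well above background on no array, with the mean processed ratio of ES cells over reference (circles) and the lower ratio with the offset of 50 and the reference at no less than its lowest detected value (triangles) on a log axis. The lower ratios lie between 1.13-fold and 9.35-fold, and 2 of them reach the dotted line at 5.01-fold.

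Mageb16 and 2410003L11Rik had both a high ratio and a measured reference. The processed Cy3 signal of Mageb16 was 18100 for control cells and 20440, 17140 and 21710 under FGFR, MEK and GSK inhibition, and its Cy5 signal was between 86.4 and 138. That of 2410003L11Rik was 3772, 3455, 3686 and 3851, over Cy5 signals of 38.6 to 52.6. Neither changed by more than 0.24 on the log2 scale with any inhibitor, in the ratio with the offset or in Cy3 alone. In the processed ratio Mageb16 changed by -0.12, -0.45 and -0.41 with FGFR, MEK and GSK inhibitor, and 2410003L11Rik by 0.32, 0.15 and 0.23. Mageb16 has relatives of similar sequence, and a contribution of these to its probe was not tested.

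Apart from the testis series that were left out, the selection did not use the clone library. The prefix 2410 stands for the RIKEN library of ES cells, and 19 of the 56 detected symbols with it were members (33.9%). Of the 1178 detected symbols with other prefixes, 95 were members (8.06%). Clones of the 2410 series made up 4.54% of the detected symbols and 16.7% of the members. Among them are the genes for Mageb16, Khdc3, Castor1 and Coprs, and the noncoding 2410003L11Rik and 2410080I02Rik. The share of the 2410 series stayed above that of the other prefixes under each alternative selection, from 37.5% against 10.8% at a log-ratio of -0.6 to 10.7% against 2.29% with the loess ratio. With the ES-derived prefix, 94.9% of the 59 symbols on the array were detected, against 70.1% of the 1680 with other prefixes. Among the prefixes listed, A830 came close, with 4 members among 12 detected symbols (33.3%), and 1600 had 4 among 15 (26.7%). Prefix 6330 had 5 among 23 (21.7%), 4931 had 4 among 19 (21.1%), 2310 had 10 among 105, 1110 had 5 among 82, and 0610 and 2700 had none among 35 and 22.

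**Figure D3:**
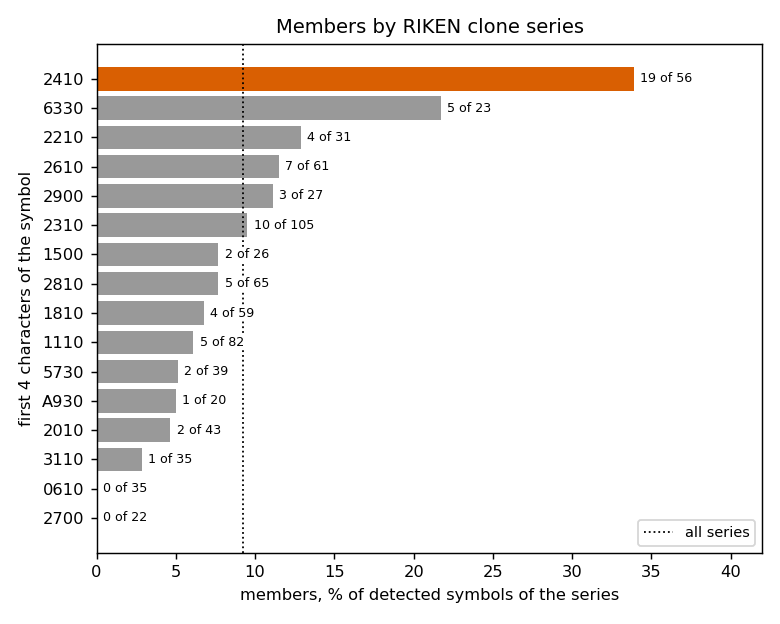
Members as a percentage of the detected symbols with the same first 4 characters, for the prefixes with at least 20 detected symbols, with counts beside the bars. The ES cell library 2410 had 19 of 56, and the dotted line is the 9.24% of all detected symbols.

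Known markers gave little to set beside this. Of 24 ES cell markers, 3 are named in the tables held, and all 3 were higher in ES cells than in the reference, Tcfcp2l1 by 10.6-fold, Prdm14 by 8.29-fold and Gbx2 by 22.6-fold in the mean processed ratio. Processed Cy3 signals on the control, FGFR, MEK and GSK arrays were 26660, 46350, 48080 and 58360 for Tcfcp2l1. They were 1530, 2816, 2060 and 1575 for Prdm14, and 8670, 1806, 6080 and 8704 for Gbx2. Of 5 endoderm markers only Sox17 is named, at 20.4-fold in the processed ratio, with a Cy3 signal between 487.8 and 670.6 on the 4 arrays. Its mean log2 ratio with the offset was lower, at 2.00. Of 6 fibroblast markers, the collagen gene Col3a1 was at 0.00541-fold and the fibronectin gene Fn1 at 0.36-fold of the reference. In the same order of arrays, Cy3 signals were 690.2, 714, 686.3 and 743.5 for Col3a1 and 20760, 30480, 30790 and 30450 for Fn1. No probe is named here for the 5 trophoblast, 3 mesoderm and 3 ectoderm markers. RNA of a whole culture was measured, so a change in the number of cells expressing a gene and a change in the RNA per cell cannot be told apart.

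Most members were not called changed with any inhibitor. Of the 114, 10 changed at least 2-fold in the ratio, 14 in Cy3 alone (quantile normalized over arrays) and 17 by either measure, which leaves 97 changed by neither. Of the 38 dimmest members, with a mean processed Cy3 signal of 30.27 to 279.9, 0 were called by either measure. The offset understates changes of such probes, so the missing calls do not show that these members were steady. Of the 38 members of middle signal, 7 were called in the ratio and 7 in Cy3 alone, and of the 38 brightest, 3 and 7. With FGFR inhibitor, 7 members (6.14%) were higher and 1 (0.877%) lower in the ratio, against 0.82% and 0.61% of all 16226 genes. In Cy3 alone the numbers were also 7 and 1, against 0.974% and 0.69%, and 5 members were called by both measures. With MEK inhibitor, 1 member was higher and 0 lower in the ratio, and 0 were called in either direction in Cy3 alone. The shares of all genes were 0.0431% in each direction in the ratio, and 0.0308% higher and 0.0431% lower in Cy3 alone. With GSK inhibitor, 1 member was higher and 2 were lower in the ratio, against 0.684% and 0.752% of 16225 genes. There were 6 higher and 5 lower in Cy3 alone, against 0.943% in each direction.

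The same threshold was applied to the other 1120 detected RIKEN symbols. With FGFR inhibitor 4 were higher (0.357%) and 1 was lower (0.0893%), in the ratio and also in Cy3 alone. Under GSK inhibition, 7 were higher (0.625%) and 0 lower in the ratio, and 7 higher (0.625%) and 2 lower (0.179%) in Cy3 alone. None was called with MEK inhibitor. The middle of the member distribution lay near 0. The median log2 change of members was -0.01 with FGFR, 0.03 with MEK and -0.02 with GSK inhibitor in the ratio, and -0.05, -0.04 and -0.01 in Cy3 alone. For all genes it was between -0.02 and 0.01. The robust SD among members was 0.25, 0.21 and 0.31 in the ratio with FGFR, MEK and GSK inhibitor, against 0.21, 0.16 and 0.24 among all genes.

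**Figure D4:**
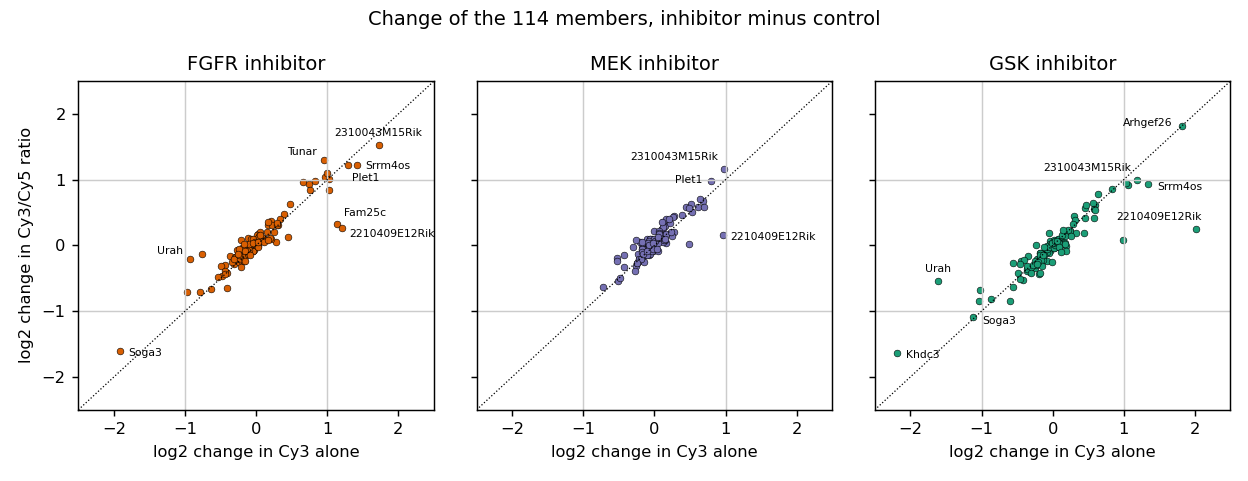
Log2 change of the 114 members in Cy3 alone (x axis) and in the Cy3/Cy5 ratio (y axis), inhibitor array minus control array, 1 panel per inhibitor, with gray lines at 2-fold. Most members lie near the dotted line of equal change, while Fam25c, Urah and 2210409E12Rik changed in Cy3 alone with a ratio change between -0.54 and 0.33.

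The counts of changed members depend on the processing. With the processed signals in place of the offset, 6 members were higher and 9 lower in the ratio under FGFR inhibition, 3 and 3 under MEK inhibition, and 6 and 6 under GSK inhibition. In Cy3 alone the same signals gave 15 higher and 6 lower, 3 and 1, and 8 and 10 in the same order. These signals also called more of all genes, 4.07%, 1.32% and 4.49% in the ratio and 4.35%, 0.826% and 4.91% in Cy3 alone, higher and lower together. Of the 12 members that only the processed ratio called with FGFR inhibitor, 11 lacked a Cy5 signal above background on at least 1 array. Of the 8 members called in the main ratio, 3 were called by the processed ratio as well, namely Soga3, Plet1 and Fam81a, which are described next.

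In the ratio with the offset and in normalized Cy3 alone, the largest change with FGFR inhibitor was the lower signal of 6330407J23Rik, now Soga3. Its processed Cy3 signal was 2871 for control cells and 674.2, 2343 and 1268 under FGFR, MEK and GSK inhibition. Its Cy5 signal stayed between 139.1 and 185.7. The log2 change with FGFR inhibitor was -1.61 in the ratio (robust SD 0.24) and -1.92 in Cy3 alone (0.24). Under GSK inhibition it was -1.08 (0.31) and -1.12 (0.32), and under MEK inhibition -0.33 (0.17) and -0.43 (0.18). The 6 alternatives for the ratio gave -1.77 to -1.60 with FGFR inhibitor. A second probe that the study lists for this symbol on other arrays gave processed Cy3 signals of 1056, 213.1, 869 and 469.8 in the same order, with changes in Cy3 alone of -1.60, -0.36 and -0.94. Both probes were lowest with FGFR inhibitor and next lowest with GSK inhibitor.

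The noncoding 2310043M15Rik had its lowest signal on the control array. Its processed Cy3 signal was 411.9 there, and 1947, 1144 and 1248 under FGFR, MEK and GSK inhibition, and the Cy5 signals were 25.4, 70.8, 41.3 and 54.7. All 3 inhibitor arrays were thus above the control array in both channels. The ratio changed by 1.53 with FGFR (robust SD 0.24), 1.16 with MEK (0.18) and 1.00 with GSK inhibitor (0.26), the last just under the threshold at 0.997. Cy3 alone changed by 1.72, 0.98 and 1.18. It was the only member called with MEK inhibitor. In the processed ratio the changes were 0.76, 0.77 and 0.49, none of them 2-fold.

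1600029D21Rik is now Plet1, a surface protein known from placental and epithelial progenitor cells. Its processed Cy3 signal was 1040 for control cells and 2913, 2161 and 1676 under FGFR, MEK and GSK inhibition, over Cy5 signals of 144.2 to 178.9. The control array was the lowest and the FGFR array the highest. The ratio changed by 1.23 with FGFR (robust SD 0.24), 0.97 with MEK (0.17) and 0.64 with GSK inhibitor (0.31), and Cy3 alone by 1.29, 0.80 and 0.57. The call with FGFR inhibitor held in all 6 alternatives for the ratio and all 4 for Cy3 alone. Among the 6, Aquantile leaves ratios as they were and the deposited table repeats the processed ratio.

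A further 2 members were called by both measures with FGFR inhibitor. The noncoding 2410137F16Rik, named Srrm4os for its place on the strand opposite Srrm4, had processed Cy3 signals of 992.6 on the control array and 3020, 1767 and 2836 with FGFR, MEK and GSK inhibitor. Its change with FGFR inhibitor was 1.22 (robust SD 0.23) in the ratio and 1.41 in Cy3 alone, and the processed ratio gave 0.74. With GSK inhibitor it changed by 0.93 in the ratio and 1.34 in Cy3 alone. The protein-coding 2410137M14Rik had signals of 514.6, 1360, 932.8 and 1324. Its ratio change with FGFR inhibitor, 1.02, passed 2-fold in 1 of 6 alternatives, Aquantile, which leaves ratios as they were. The call thus held in no alternative that could change it, and the lowest value was 0.80. For both genes the control array was the lowest and the FGFR and GSK arrays lay close together.

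Some members with FGFR inhibitor were called by 1 measure. In the ratio only, these were 2810011L19Rik, now Tunar, a noncoding RNA tied to pluripotency and neural differentiation, 4931407G18Rik (Cabs1) and 6430514L14Rik (Fam81a). Tunar had processed Cy3 signals of 192.4, 631.8, 330.9 and 203.7 on the control, FGFR, MEK and GSK arrays, and its ratio changed by 1.29, 0.44 and -0.08, the MEK value turning to -0.64 in the processed ratio. The FGFR array was the highest and the GSK array lay close to the control. Its Cy5 was well above background on 1 array, and the processed ratio gave 0.92 with FGFR inhibitor. The ratio of Cabs1 changed by 1.04 with FGFR inhibitor, and by 0.40 in the processed signals, where its Cy5 was above background on no array. Fam81a changed by 1.09 in the ratio and by 0.99 in Cy3 alone. In Cy3 alone only, Ticrr (5730590G19Rik), the factor Treslin that helps to start DNA replication, changed by 1.02, with signals of 4165, 8955, 7388 and 6654. Its ratio changed by 0.84, 0.58 and 0.54 with FGFR, MEK and GSK inhibitor.

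**Figure D5:**
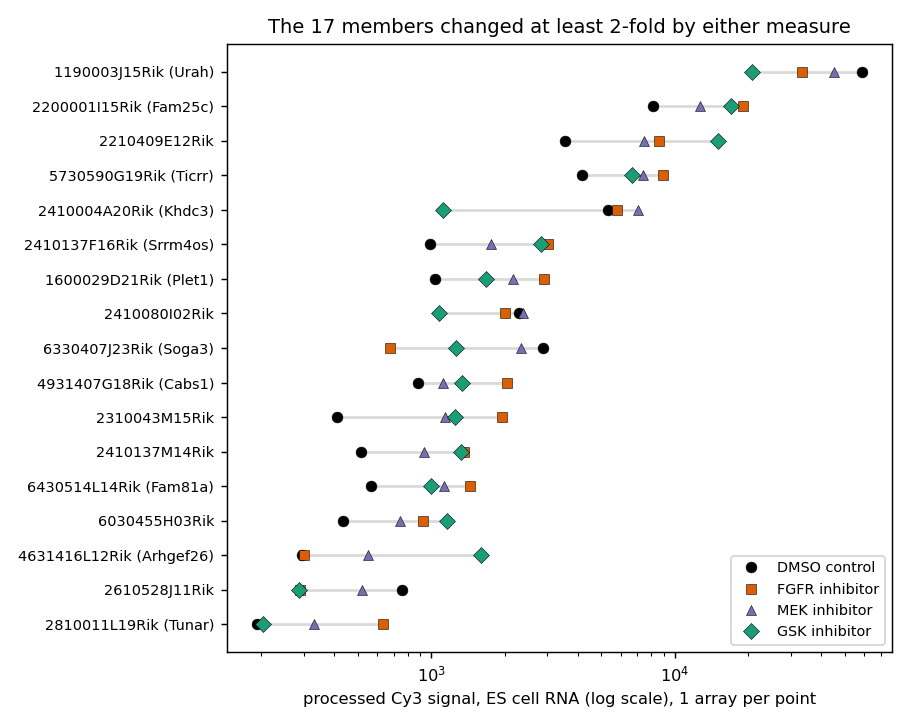
Processed Cy3 signal on each of the 4 arrays (log scale, 1 point per array) of the 17 members changed at least 2-fold with any inhibitor in the ratio or in Cy3 alone. Khdc3 stands apart with GSK inhibitor only at 1116, Arhgef26 reaches 1596 there, and Soga3 is lowest at 674.2 with FGFR inhibitor.

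With GSK inhibitor, the largest change in Cy3 alone was the lower signal of 2410004A20Rik, now Khdc3. It encodes Filia, part of a maternal protein complex in oocytes and early embryos that also acts in genome stability of ES cells. Its processed Cy3 signal was 5334 for control cells and 5782, 7073 and 1116 under FGFR, MEK and GSK inhibition. The first 3 arrays lay close together, and the GSK array was far below them. The log2 change with GSK inhibitor was -1.63 in the ratio (robust SD 0.29) and -2.19 in Cy3 alone (0.30), against 0.18 and 0.21 in the ratio with FGFR and MEK inhibitor. Its Cy5 signal was 147.7, 137, 188.5 and 69.6, so the reference channel was also lowest on the GSK array. The processed ratio gave -1.17.

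4631416L12Rik, now Arhgef26, moved in the opposite direction. Its processed Cy3 signal was 294.4 for control cells and 299.6, 549.5 and 1596 under FGFR, MEK and GSK inhibition, over Cy5 signals of 42.3 to 68.9. The control and FGFR arrays were alike and the GSK array was the highest. With GSK inhibitor the change was 1.82 in the ratio (robust SD 0.29) and 1.82 in Cy3 alone (0.29). Under MEK inhibition it was 0.58 and 0.49, and under FGFR inhibition -0.02 and -0.04. The alternatives for the ratio with GSK inhibitor gave 1.67 to 1.90.

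Of the members called with GSK inhibitor in Cy3 alone but not in the ratio, 3 were lower. These were 1190003J15Rik (Urah), an enzyme of urate breakdown, 2610528J11Rik and the noncoding 2410080I02Rik. The last had processed Cy3 signals of 2288, 2014, 2376 and 1072 on the control, FGFR, MEK and GSK arrays, and its change with GSK inhibitor was -1.03 in Cy3 alone and -0.84 in the ratio. The signals of 2610528J11Rik were 759.1, 290.4, 519.6 and 285.9, so it was lowest on the FGFR and GSK arrays. It changed by -0.98, -0.53 and -1.02 in Cy3 alone and by -0.70, -0.24 and -0.68 in the ratio. Its Cy5 signal was 69.4 on the control array and 17.9 on the GSK array, and the direction turned in the processed ratio with GSK inhibitor, to 0.55. In 1 of the 4 alternatives for Cy3 alone its call with GSK inhibitor was lost, at -0.98. Higher with GSK inhibitor in Cy3 alone only were 2310043M15Rik, Srrm4os, 2410137M14Rik, 2210409E12Rik and 6030455H03Rik, which has no match in the RefSeq table. The signals of 6030455H03Rik were 434.8, 924.9, 747.2 and 1157, with ratio changes of 0.85, 0.58 and 0.92.

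For 3 bright members the reference channel moved by about as large a factor as the sample channel. The pseudogene 2210409E12Rik had Cy3 signals of 3552, 8620, 7504 and 14990 on the control, FGFR, MEK and GSK arrays, and Cy5 signals of 183.3, 482.6, 444.2 and 925.6. Its log2 change was 1.21, 0.96 and 2.02 in Cy3 alone, and 0.27, 0.16 and 0.25 in the ratio. The processed ratio turned the direction, to -0.12, -0.20 and -0.26. 2200001I15Rik (Fam25c) had Cy3 signals of 8151, 19140, 12660 and 17100 and Cy5 signals of 367, 781, 615.8 and 825.7, which gave 1.14 in Cy3 alone and 0.33 in the ratio with FGFR inhibitor. Urah had Cy3 signals of 58840, 33460, 44920 and 20770 and Cy5 signals of 2713, 1623, 2285 and 1215. It changed by -0.93, -0.52 and -1.61 in Cy3 alone and by -0.21, -0.19 and -0.54 in the ratio. The labels give the same reference for every array, and at these spots both channels were high or low on the same arrays.

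Over all members changed at least 2-fold in Cy3 alone, the reference channel moved the same way. Cy5 changed in the same direction as Cy3 in 8 of 8 members with FGFR inhibitor and in 11 of 11 with GSK inhibitor, with the offset and in the processed signals. With the offset, the median log2 change of Cy5 was 0.164 of that of Cy3 with FGFR inhibitor and 0.231 with GSK inhibitor. In the processed signals these fractions were 0.482 (0.131 to 1.09) and 0.672 (0.00285 to 1.39). Cy5 moved more than Cy3 there for 2210409E12Rik with both inhibitors and for 2610528J11Rik with GSK inhibitor. The Cy5 signal of 2610528J11Rik was well above background on 3 arrays only. With GSK inhibitor, the 10 members with Cy5 above background on all arrays had a median fraction of 0.576 (0.00285 to 1.12). The members counted here were picked for their Cy3 change, and the same counts were not made over all genes. The part that the reference channel plays in these differences was not tested.

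The 5 brightest members were 1810043G02Rik (Cfap410), a protein of cilia, 2410022L05Rik (Coprs), a partner of the arginine methyltransferase PRMT5, the noncoding A830035A12Rik, Urah and Mageb16. Of these Urah was lower under all 3 inhibitors, with the changes given above, past 2-fold with GSK inhibitor in Cy3 alone. Cfap410 had processed Cy3 signals of 289200, 250400, 260700 and 249300, a change in Cy3 alone between -0.22 and -0.14. Its ratio changed by -0.24, -0.25 and -0.43 with FGFR, MEK and GSK inhibitor (robust SD 0.21, 0.16 and 0.23). Coprs had signals of 91350, 95880, 97710 and 106000, with changes of 0.03, 0.03 and 0.17. A830035A12Rik had 53500, 75670, 60390 and 47630, so it was highest with FGFR inhibitor, by 0.45 in Cy3 alone (robust SD 0.18) and 0.13 in the ratio. The smallest changes in Cy3 alone were those of 4931440P22Rik, 2610035F20Rik, C030007H22Rik, 1600010M07Rik and 2310079F23Rik (Trmt44), a tRNA methyltransferase. The first 4 had signals of 27.5 to 52.8, near or below the offset of 50. Trmt44 had 606.2, 650.5, 690.8 and 654, and changed by at most 0.05.

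A second probe on the array is listed by the study, for other experiments, for 10 of the members, and 9 of these probes were detected on all 4 arrays. By the same rule 4 of them would be members, those of 6330407J23Rik (Soga3), A030007L17Rik (Ggct), 6330419J24Rik (Smim10l2a) and 1110032A13Rik. For Ggct, an enzyme of glutathione breakdown, the second probe changed by 0.00, -0.23 and -0.21 in Cy3 alone and the member probe by 0.02, -0.25 and -0.18. For 1110032A13Rik the probes differed. The second probe changed by 1.21, 0.32 and 1.65 in Cy3 alone, the member probe by -0.50, -0.08 and -0.25. For 9630031F12Rik (Fam184b) the member probe had a mean ratio of 12.8-fold, with Cy5 above background on no array, and the second probe of 1.14-fold. A symbol thus did not always stand for 1 pattern, and which transcript each probe of such a pair measures was not tested.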

How the data were processed

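RNA of 4 ES cell cultures was measured on 4 arrays of 1 slide, and groups were taken from the sample labels. The authors deposited scanner output of Agilent Feature Extraction 9.5.1.1 with mean intensity, local background and processed intensity per channel and a log10 ratio, and a table of log10 values for 25030 genes. Differences between arrays in the deposited log10 table equalled those of the processed ratio for the members, within 0.00021. The scanner files mark probes as unmapped, so no coordinates are given.

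Mean intensity was corrected with normexp (offset 50) in limma 3.58.1, control and outlier spots were left out, and ratios were normalized by loess within arrays. Cy3 alone was quantile normalized. Processed signals printed per array are not scaled between arrays. The offset understates changes of dim probes. On simulated arrays of 43451 spots, 200 of them changed, log2 changes set to -2 came out with a median of -1.61 in the ratio and -1.32 in Cy3 alone, and those set to 2 at 1.89 and 1.84. The changed spots were detected ones of any brightness with Cy3 far above Cy5, noise was small, and Cy5 was held unchanged. Recovery was not split by signal, so it does not give the loss for dim members or where both channels moved. No replicates existed, so precision rests on single spots and no p-value was computed.

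The members and lists were chosen with earlier results of these data known. Members named are the 3 markers of the set, those changed at least 2-fold, the 5 with the highest ratio, the 5 brightest, the 5 with the smallest largest change in Cy3 alone and the 3 nearest the threshold on either side. Ggct, Smim10l2a, Fam184b and 1110032A13Rik were named for their second probe, and Castor1 as a member of the 2410 series, after their values were seen. Symbols come from the inhibitor-array probe column of the supplementary tables. The settings varied were the offset (16), background subtraction (none), processed signals, the deposited log10 table, median centring, Aquantile, 75th percentile scaling, a 1.5-fold threshold and other selections of members. Aquantile leaves ratios as they were, and the deposited table repeats the processed ratio, so neither is a further check of a ratio call. Selection on the control array alone, as applied to the counts of changed members, and the shares of the 2410 series under other selections were added after seeing the data. Software was R 4.3.3, Python 3.11.15, numpy 2.4.6, pandas 2.3.3 and matplotlib 3.10.9.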

Additional observations from a re-analysis of the deposited data

How the results depend on the processing

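The number of members, 114, became 148 at a log-ratio of -0.6, 90 at -0.8, 54 at -1.0, 124 on the control array alone (111 shared), 72 with both channels above background and 33 with the loess ratio. The loess ratio differs from the processed one in background correction, offset and normalization together, and the cause was not tested. The share of the 2410 series that were members was between 10.7% and 37.5%.

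Counts of members changed in the ratio with FGFR inhibitor were 8, and 15 with the processed signals or the deposited table and 18 at 1.5-fold. With MEK inhibitor the count was 1, and 2 with an offset of 16, without background subtraction or with median centring, and 6 with the processed signals, the deposited table or at 1.5-fold. With GSK inhibitor it was 3, and 12 with the processed signals or the deposited table and 17 at 1.5-fold. In Cy3 alone, the 8 with FGFR inhibitor became 21 with the processed signals, 13 with an offset of 16 and 20 at 1.5-fold. The 0 with MEK inhibitor became 1 with an offset of 16 or without background subtraction, 4 with the processed signals and 8 at 1.5-fold. The 11 with GSK inhibitor became 18 with the processed signals and 19 at 1.5-fold. The processed signals called 4.07%, 1.32% and 4.49% of all genes in the ratio with FGFR, MEK and GSK inhibitor, and 4.35%, 0.826% and 4.91% in Cy3 alone. The deposited table called 4.07%, 1.31% and 4.5%. With MEK inhibitor, the shares in the ratio were 0.173% with an offset of 16, 0.111% without background subtraction and 0.0986% with median centring. In Cy3 alone, an offset of 16 gave 2.42% with FGFR and 0.197% with MEK inhibitor, and no background subtraction 0.0924% with MEK inhibitor. At 1.5-fold the shares of all genes were 5.87%, 1.08% and 6.61% in the ratio and 6.35%, 1.1% and 7.57% in Cy3 alone. Choosing members on the control array alone gave the main counts in all 6 comparisons. Median changes of members lay between -0.14 and 0.13 over the comparisons and alternatives run, and median centring moved the median of all genes by 0.11 with MEK inhibitor.

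Of 31 called changes of named members, 24 stayed past 2-fold under all alternatives of the same measure, and 0 changed sign there. Between measures the sign did turn. In the processed ratio, 1 of 8 calls in Cy3 alone with FGFR inhibitor and 2 of 11 with GSK inhibitor had the opposite sign. These were 2210409E12Rik, at -0.12 and -0.26 with FGFR and GSK inhibitor, and 2610528J11Rik, at 0.55 with GSK inhibitor. For ratio calls, Aquantile and the deposited table were no further checks. No paired analysis was possible because there was 1 array per condition, so leaving out a replicate and a slide block were not run either. The depth limit is signal over background, since 42 of the 114 members lacked a Cy5 signal well above background on at least 1 array.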
